A study of Mus musculus with 36 samples.

Results

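Regenerating liver of old mice was compared between the time point labelled 72 and the time point labelled before. The members were the 6 count tables whose titles name old animals at these time points, 3 against 3, out of 36 tables in the series. The old mice were C57BL/6JN animals of 18 months, which the labels name as the treated group, and the strain is a common inbred laboratory mouse. The other 30 libraries came from old liver at 48, 96, 120 and 240 and from liver of 4-month C57BL/6JN mice at all 6 time points, with 3 libraries in each of the 12 groups. Every group shared the strain, the tissue and the preparation (frozen liver, DNase treatment, total RNA freed of ribosomal RNA), and the groups differed in age and time label alone, as far as the labels say. The labels give no unit for the time numbers, no sex and no account of how regeneration was started. The series' design text calls the 3 libraries of a group biological replicates. The p-values set a change against the spread between replicates, estimated within the 12 groups of all 36 libraries.

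As background, the adult liver is mostly quiescent, and after loss of tissue its hepatocytes re-enter the cell cycle. Entry into S phase runs through E2F factors, which switch on the genes of the replication fork. The later G2 and M phases run through the MuvB complex with B-MYB and FOXM1, which switch on genes of the spindle and kinetochore. The same hepatocytes carry the metabolic work of the organ, such as fatty acid and cholesterol synthesis, glucose output, urea synthesis and bile acid synthesis.

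The 6 libraries held 4242166 to 4863794 counts, within the 2328233 to 6034446 counts of all 36. Values are given as CPM, a count scaled to the size of its library with TMM factors, and 1 gene is compared between libraries on that scale. The labelled tissue was checked against defining markers. Alb (albumin), made by hepatocytes, lay between 7450 and 10900 CPM. The muscle genes Ckm and Acta1, the pancreas gene Prss2 and the fat gene Adipoq were at 0.704 CPM or lower. The pancreas gene Cela1 was higher, at 3.52, 0.67 and 0.228 CPM before and 1.44, 0.936 and 3.06 CPM at 72. The summed level of a list of muscle, pancreas and fat genes was 39.2, 2.23 and 0.684 CPM before and 2.87, 2.81 and 4.98 CPM at 72. In 12 of the 36 libraries, 1 in every group, transcripts of the Y chromosome were present. These were replicate 1 before and replicate 3 at 72, so each group held 1 such library and 2 others. Replicate 1 before also stood apart in detecting 20255 genes, against 15988 to 16834 in the other 5 and at most 18309 in any of the other 35 libraries. On the first principal component of the 6 libraries, which held 50.4% of their variance, it scored -13.19, between -45.8 and -58.78 for the other libraries before and 27.66 to 51.05 for those at 72.

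At 72, 63 of 67 tested genes of mitosis and 25 of 49 of DNA replication were called higher than before, and 16 of 21 of fatty acid synthesis and 5 of 7 of MHC class II antigen presentation were called lower, with no call in the opposite direction in these 4 lists. Of 13436 genes tested with edgeR's quasi-likelihood test, 1696 were called (12.6%), which means an adjusted p under 0.05. The calls split into 901 higher (6.71% of all tested genes) and 795 lower (5.92%), and 873 calls (6.50%) differed at least 2-fold. The values of the 3 libraries at 72 lay wholly above those before in 2070 genes (15.4%) and wholly below in 2122 (15.8%). Both conditions, a call and no overlap, were met by 860 genes higher and 748 lower. The counts of list members given below are to be read beside these shares of all tested genes. The count of calls was 692 without replicate 3 before, 936 without replicate 2 before, 890 without replicate 3 at 72 and 1746 without replicate 1 before. With total-count scaling, which moved the median log2 change of all genes to 0.111 from -0.01, 72.2% of 1789 calls were higher, against 53.1% of the 1696, so directions are relative to the bulk of genes.

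**Figure D1:**
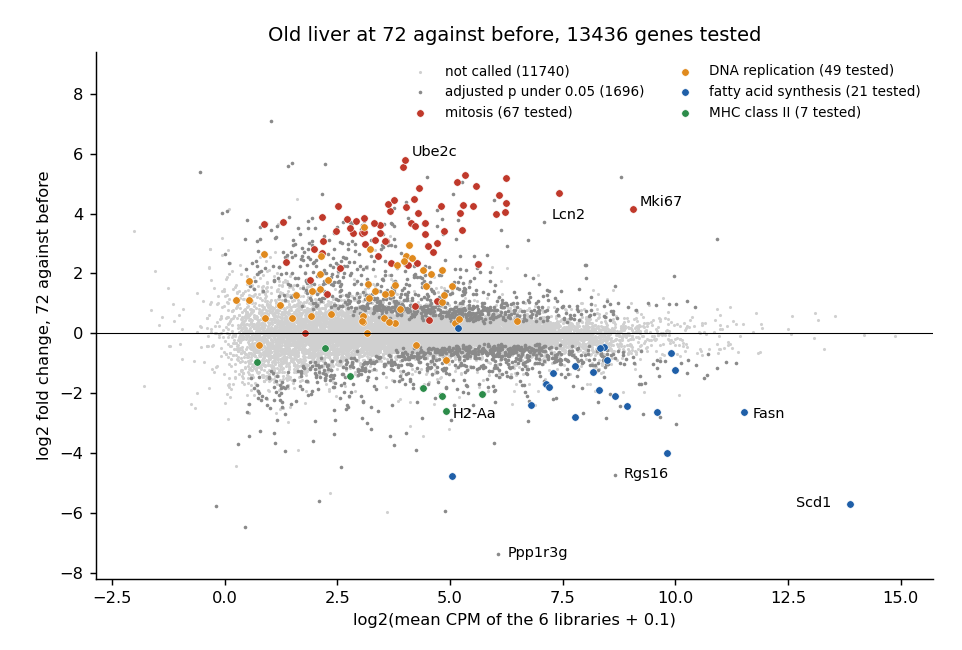
Each point is 1 of 13436 tested genes, with the log2 of its mean CPM over the 6 libraries plus 0.1 on the x axis and its log2 fold change at 72 against before on the y axis. Dark grey points are the 1696 calls, and coloured points are all tested members of 4 gene lists: nearly all mitosis genes (red) lie above the line, and fatty acid synthesis genes (blue) lie below it apart from 1.

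Among the 12 largest rises of called genes, predicted genes left aside, most belong to the machinery of mitosis. Ube2c, the ubiquitin-conjugating enzyme of the anaphase-promoting complex (GRCm38 chr2:164769929-164772902), read 0.47, 0.894 and 0.228 CPM before and 17.6, 45.6 and 30.1 CPM at 72. The groups did not overlap, and the log2 fold change was 5.79 ± 0.99 (SE; adjusted p 0.000437). Ccnb1, the mitotic cyclin that activates CDK1, went from 1.64, 0.223 and 0 CPM to 13.8, 43.1 and 34.1 CPM (5.56 ± 0.95, adjusted p 0.000437). Cdc20, the activator of the anaphase-promoting complex, went from 8.92, 2.46 and 0.684 CPM to 67.3, 215 and 160 CPM (5.19 ± 0.94, adjusted p 0.000676). Replicate 1 at 72 was the lowest of its group in each of these genes, and its values were still several times the highest value before. Hmmr, a spindle-associated hyaluronan receptor, Cdca3, Knstrn, Ckap2 and Ckap2l rose by 4.93 to 5.28 on the log2 scale, with adjusted p from 0.000128 to 0.000669. D17H6S56E-5, named for its locus, went from 25.4, 28.6 and 16.0 CPM to 382, 864 and 1339 CPM (5.21 ± 0.82, adjusted p 0.000211). The other 3 had almost no counts before: Aunip held 1 count there and 78 at 72, a ratio of 71.2 (95% counting interval 12.4 to 2850), Depdc1b held 2 and 127 (58.0, 15.7 to 484), and Efcab11 held 1 and 72 (65.7, 11.4 to 2630).

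The 12 largest falls were led by genes of glycogen and fat. Ppp1r3g, a glycogen-targeting subunit of protein phosphatase 1 (GRCm38 chr13:35958824-35970388), read 44.6, 79.3 and 276 CPM before and 1.23, 0.468 and 0.574 CPM at 72, a log2 fold change of -7.39 ± 0.85 (adjusted p 2.11e-05). Scd1, which desaturates stearate to oleate (GRCm38 chr19:44394450-44407709), went from 36410, 21600 and 31130 CPM to 104, 302 and 1305 CPM (-5.70 ± 1.04, adjusted p 0.00068). The 3 libraries at 72 differed more than 10-fold among themselves in Scd1 and still lay far below every library before. Pnpla3, a lipase of the lipid droplet, fell by 4.78 on the log2 scale (adjusted p 0.000645) and Thrsp, which promotes lipogenesis, by 4.00 (adjusted p 0.000421). Rgs16, a regulator of G protein signalling, went from 616, 772 and 942 CPM to 68.1, 13.6 and 5.74 CPM (-4.73 ± 1.08, adjusted p 0.00479), and Rgs1, of the same family, went from 33.1, 49.1 and 23.3 CPM to 3.08, 1.17 and 2.68 CPM (-3.89 ± 0.55, adjusted p 9.21e-05). Phgdh, the first enzyme of serine synthesis, held 107 counts before and 2 at 72, a ratio of 58.6 (95% counting interval 15.8 to 490).

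The remaining falls among the 12 were in Elf5 (-4.46 ± 0.81, adjusted p 0.000676), Tctex1d4 (-3.93 ± 0.88, adjusted p 0.00423), Esm1, Lsmem1 and Pnpla5. Esm1, a proteoglycan secreted by endothelial cells, went from 27.2, 24.4 and 22.8 CPM to 1.85, 3.04 and 0.766 CPM (-3.73 ± 1.03, adjusted p 0.0172), and its call was lost without replicate 1 at 72 (adjusted p 0.0543) or replicate 3 at 72 (0.0897). Lsmem1 held 28 counts before and 2 at 72, a ratio of 15.3 (95% counting interval 3.87 to 133), and was not called without replicate 3 before (adjusted p 0.136) or without replicate 1 or 2 at 72 (0.0672 and 0.0686). Pnpla5 changed by -3.66 ± 1.06 (adjusted p 0.0229) and was not called without replicate 1 before (0.153) or without any 1 of the libraries at 72 (0.052 to 0.087).

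**Figure D2:**
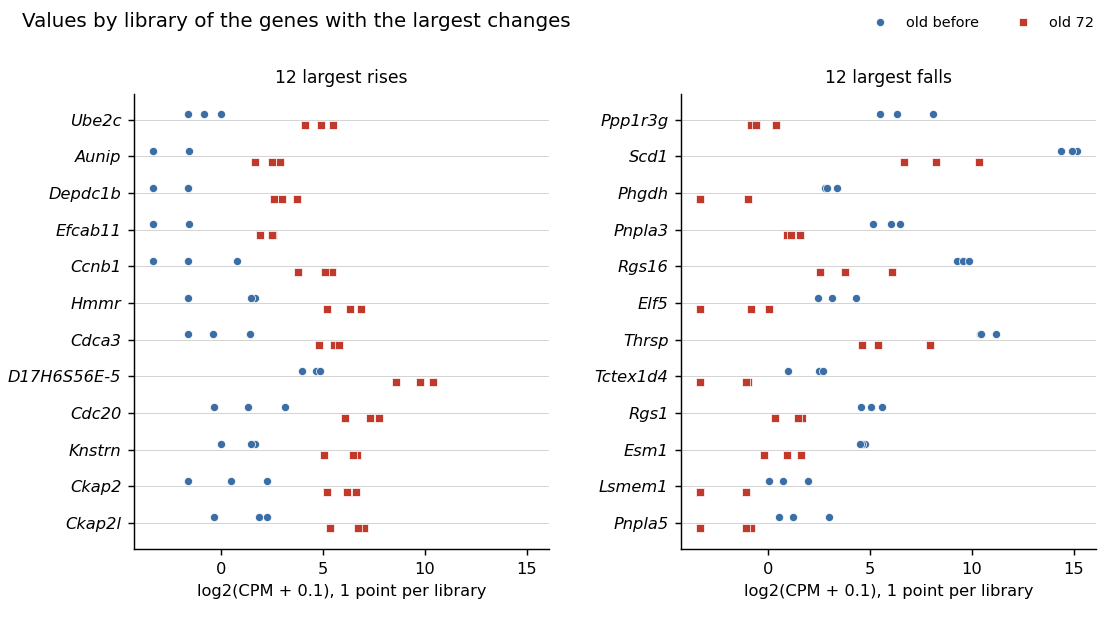
Each row is 1 gene and each point 1 library, with log2(CPM + 0.1) on the x axis (blue circles: old before, red squares: old 72). In the 12 genes with the largest rise, on the left, and the 12 with the largest fall, on the right, the 3 libraries at 72 lie apart from the 3 before, which the rule for choosing these genes required.

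Promoters of called replication and mitosis genes are shown here because short motifs were found in some of the former and most of the latter. The windows run from 250 bases before to 50 bases after the start, from RefSeq on GRCm38.p6, and both strands were searched. The E2F motif, TTTCCCGC or TTTGGCGC, was in 30.8% of 26 windows of called replication genes (21 of 25 genes had a window), in 22.4% of 49 windows of all tested replication genes and in 2.72% of 12926 windows of all tested genes. The promoters of 3 of these genes follow, each the 150 bases before the start, 5′ to 3′ on the gene's own strand, with the E2F motif or its reverse complement in capitals. Gins3 lies at chr8:95633409-95633558 (plus strand), Mcm5 at chr8:75109359-75109508 (plus strand) and Mcm6 at chr1:128359706-128359855 (minus strand).
Gins3: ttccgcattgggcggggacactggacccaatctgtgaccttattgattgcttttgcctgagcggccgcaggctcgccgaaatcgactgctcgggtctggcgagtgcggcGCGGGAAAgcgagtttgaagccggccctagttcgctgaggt
Mcm5: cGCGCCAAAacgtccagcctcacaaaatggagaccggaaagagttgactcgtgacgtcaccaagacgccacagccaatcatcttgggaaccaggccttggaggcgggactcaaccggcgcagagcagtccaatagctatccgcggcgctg
Mcm6: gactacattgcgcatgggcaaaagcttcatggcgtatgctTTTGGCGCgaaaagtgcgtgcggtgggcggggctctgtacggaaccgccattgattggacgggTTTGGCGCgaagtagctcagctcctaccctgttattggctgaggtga

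In Mcm6 the motif stood at 110 to 103 and again at 47 to 40 bases before the start, in Gins3 at 41 to 34 and in Mcm5 at 149 to 142. The CHR motif, TTTGAA, was in 75.9% of 58 windows of called mitosis genes (54 of 63 genes had a window) against 12.5% of the windows of all tested genes, and CCAAT was in 72.4% against 37.5%. CCAAT was not particular to mitosis genes. It was in 61.5% of windows of called replication genes, 66.7% of called cholesterol genes and 68.4% of called fatty acid synthesis genes. In the same order CHR was in 19.2%, 16.7% and 21.1%. A match describes letters and not binding. The capitals below mark CHR and CCAAT or their reverse complements in Kif22 at chr7:127042421-127042570, Ncapd2 at chr6:125191587-125191736 and Ckap2 at chr8:22185820-22185969, all on the minus strand.
Kif22: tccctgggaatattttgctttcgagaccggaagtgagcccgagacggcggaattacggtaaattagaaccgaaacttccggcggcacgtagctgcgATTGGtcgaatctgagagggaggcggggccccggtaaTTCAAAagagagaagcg
Ncapd2: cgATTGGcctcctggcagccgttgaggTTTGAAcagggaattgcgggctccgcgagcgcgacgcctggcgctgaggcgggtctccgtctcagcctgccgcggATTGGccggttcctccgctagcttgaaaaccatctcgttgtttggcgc
Ckap2: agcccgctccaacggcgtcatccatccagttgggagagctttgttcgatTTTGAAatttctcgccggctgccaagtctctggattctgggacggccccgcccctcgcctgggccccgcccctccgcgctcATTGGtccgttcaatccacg

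DNA replication genes rose: 25 of 49 tested members were called higher and 0 lower, with a median log2 fold change of 1.28. Clspn, the fork checkpoint mediator, read 2.35, 0.894 and 0.684 CPM before and 15.6, 12.6 and 18.4 CPM at 72 (3.55 ± 0.67, adjusted p 0.000855). Chaf1a, which loads histones behind the fork, read 7.28, 2.68 and 1.6 CPM and then 32, 27.9 and 29.7 CPM (2.95 ± 0.53, adjusted p 0.000676). Fen1, the flap nuclease of lagging-strand synthesis, rose by 2.10 ± 0.35 (adjusted p 0.000421). Rrm1, the large subunit of ribonucleotide reductase, was the steadiest of the 4 at 72: it read 13.2, 8.94 and 10.9 CPM before and 33.7, 32.3 and 32.9 CPM at 72 (1.58 ± 0.27, adjusted p 0.000476). Mcm2, a subunit of the replicative helicase, read 13.2, 7.15 and 3.42 CPM and then 46.8, 23.9 and 32.7 CPM (2.13 ± 0.51, adjusted p 0.00665), with adjusted p 0.0589 without replicate 3 before. The count of 25 was 16 without replicate 2 before and 11 without replicate 3 before.

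Mitosis genes showed the broadest rise, with 63 of 67 tested members higher, 0 lower and a median log2 fold change of 3.60. The summed level of the list was 395, 318 and 188 CPM before and 2180, 5210 and 4040 CPM at 72. Mki67, the perichromosomal protein used as a proliferation marker, read 55.2, 84.2 and 31.3 CPM before and 576, 1364 and 1100 CPM at 72 (4.15 ± 0.81, adjusted p 0.00118). Top2a, which untangles sister chromatids, rose by 3.97 ± 0.78 (adjusted p 0.00132). Kif22, a chromosome-arm kinesin, read 3.99, 2.23 and 1.37 CPM and then 20.1, 40.5 and 37.3 CPM (3.68 ± 0.50, adjusted p 6.41e-05). Ncapd2, a condensin subunit, rose by 3.00 ± 0.44 (adjusted p 0.000103) and Spc25, a kinetochore subunit, by 2.28 ± 0.36 (adjusted p 0.000187). Cdk1, the kinase that drives entry into mitosis, rose by 3.34 ± 0.73 (adjusted p 0.00307). The 4 members without a call, picked out after their values were seen, were Kif18a (1.77, adjusted p 0.0562), Spc24 (1.06, 0.161), Mastl (0.46, 0.387) and Pttg1 (0.01, 0.997). With any 1 of the 6 libraries left out, 52 to 64 members were higher.

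Of the cyclins, E2F factors and upstream regulators, 14 of 35 were higher and 0 lower (median 0.64). Foxm1, a transcription factor of G2 and M phase genes, read 4.46, 2.90 and 1.82 CPM before and 25.2, 43.1 and 48.6 CPM at 72 (3.66 ± 0.73, adjusted p 0.00136). Rbl1, a pocket protein that E2F itself induces, rose by 2.13 ± 0.38 (adjusted p 0.000669), Pkmyt1, a kinase that restrains CDK1, by 2.36 ± 0.50 (adjusted p 0.00224) and Cdc25a, the phosphatase that releases CDKs, by 1.15 ± 0.25 (adjusted p 0.00276). Ccnd1, the G1 cyclin that growth factors induce, read 139, 291 and 247 CPM before and 582, 222 and 370 CPM at 72, with overlapping groups (0.80 ± 0.63, adjusted p 0.437). Myc, an immediate early growth factor response gene, read 13.2, 22.1 and 29.0 CPM and then 19.3, 11.5 and 29.5 CPM (adjusted p 0.949). Without replicate 2 before 7 members were higher, and without replicate 3 before 5.

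Of 6 tested CDK inhibitors 3 were higher and 0 lower. Cdkn1a (p21), which p53 induces, read 9.39, 2.68 and 3.65 CPM before and 39.6, 43.5 and 73.3 CPM at 72 (3.32 ± 0.69, adjusted p 0.00206). Cdkn2c (p18), of the INK4 family, read 9.39, 18.5 and 11.4 CPM and then 59.5, 119 and 58.8 CPM (2.59 ± 0.40, adjusted p 0.000175). Cdkn3, a phosphatase that acts on CDKs and peaks in mitosis, rose by 2.82 ± 0.69 (adjusted p 0.00737). Neither Cdkn1a nor Cdkn2c overlapped between the groups. Of p53 targets, 9 of 24 were higher and 1 lower (median 0.40). The members with the smallest p included Ckap2, which is also in the mitosis list, and Psrc1 (3.53 ± 0.78, adjusted p 0.00365), both of which are spindle proteins. Zmat3, an RNA-binding p53 target, rose by 0.81 ± 0.19 (adjusted p 0.00509, and 0.0676 without replicate 3 at 72). The target that fell was Gdf15, a stress-induced hormone, from 39.9, 51.2 and 75.7 CPM to 20.5, 6.79 and 18.2 CPM (-1.86 ± 0.52, adjusted p 0.0177), named after its value was seen. Without replicate 3 at 72, 3 p53 targets were higher and 1 lower, and without replicate 2 before 6 and 1.

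DNA repair and checkpoint genes rose in 16 of 29 tested members, with 0 lower (median 1.58). Brca1, which acts in homologous recombination, read 16.2, 9.61 and 12.3 CPM before and 42.9, 63.0 and 63.8 CPM at 72 (2.15 ± 0.31, adjusted p 9.21e-05). Polq, the polymerase of microhomology-mediated end joining, rose by 3.67 ± 0.69 (adjusted p 0.000855) and Xrcc2, also of homologous recombination, by 1.94 ± 0.38 (adjusted p 0.00132). The count was 9 without replicate 2 before and 7 without replicate 3 before.

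Canonical histone genes, whose transcripts are made in S phase and lack a poly(A) tail, were among the features of these total RNA libraries. Of 54 tested, 23 were higher and 0 lower (6.71% and 5.92% of all tested genes). In 40 the values at 72 lay wholly above those before (15.4% of all tested genes). Hist2h2bb read 15.5, 16.5 and 15.7 CPM before and 55.0, 74.0 and 48.0 CPM at 72 (1.89 ± 0.47, adjusted p 0.00851), and Hist1h4i read 3.29, 5.36 and 2.97 CPM and then 11.5, 15 and 9.96 CPM (1.64 ± 0.39, adjusted p 0.00613). Hist1h2ai (2.67 ± 0.64, adjusted p 0.00665) and Hist1h3g (2.80 ± 0.68, adjusted p 0.00687) also rose, and without replicate 3 before their adjusted p was 0.0553 and 0.0552. The histone count was 2 without replicate 3 before, 10 without replicate 2 before, 12 without replicate 2 or replicate 3 at 72, 15 without replicate 1 at 72 and 3 in the libraries without Y-linked transcripts, where the median stayed at 1.68 beside 1.55. Histone genes are near-identical copies, so reads may be split between them.

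Cytoskeletal genes rose in 8 of 22 tested members, with 0 lower (median 0.81), and all 4 with the smallest p bind or build microtubules. Stmn1, which destabilises microtubules, read 4.46, 4.47 and 2.28 CPM before and 31.6, 61.3 and 65.1 CPM at 72 (3.81 ± 0.61, adjusted p 0.000247). Tubb6 read 23.0, 16.3 and 14.4 CPM and then 76.1, 143 and 188 CPM (2.92 ± 0.43, adjusted p 0.000103). Tubb4b rose by 2.28 ± 0.40 (adjusted p 0.000498) and Tuba1b by 1.76 ± 0.36 (adjusted p 0.00176). The 2 groups of 3 libraries did not overlap in any of these 4 genes. Of the 22 members, 5 were higher without replicate 3 at 72 and 4 without replicate 3 before. Tubulin genes are close paralogs, so their counts are uncertain.

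Of Polycomb and DNA methylation genes, 1 of 18 was higher and 2 lower, where 12.6% of all tested genes were called. Ezh2, the methyltransferase of PRC2 that deposits H3K27me3, read 6.57, 6.03 and 5.02 CPM before and 13.3, 20.8 and 13.2 CPM at 72 (1.42 ± 0.34, adjusted p 0.00691). Tet3, an enzyme that oxidises 5-methylcytosine, changed by -0.54 ± 0.17 (adjusted p 0.0346) and Tet1 by -1.51 ± 0.50 (adjusted p 0.0466). Both of these calls were fragile: Tet3 had adjusted p 0.0763 to 0.158 without any 1 of the libraries other than replicate 1 before, and Tet1 0.124 to 0.208 without replicate 1 or 3 at 72 or replicate 1 or 2 before.

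**Figure D3:**
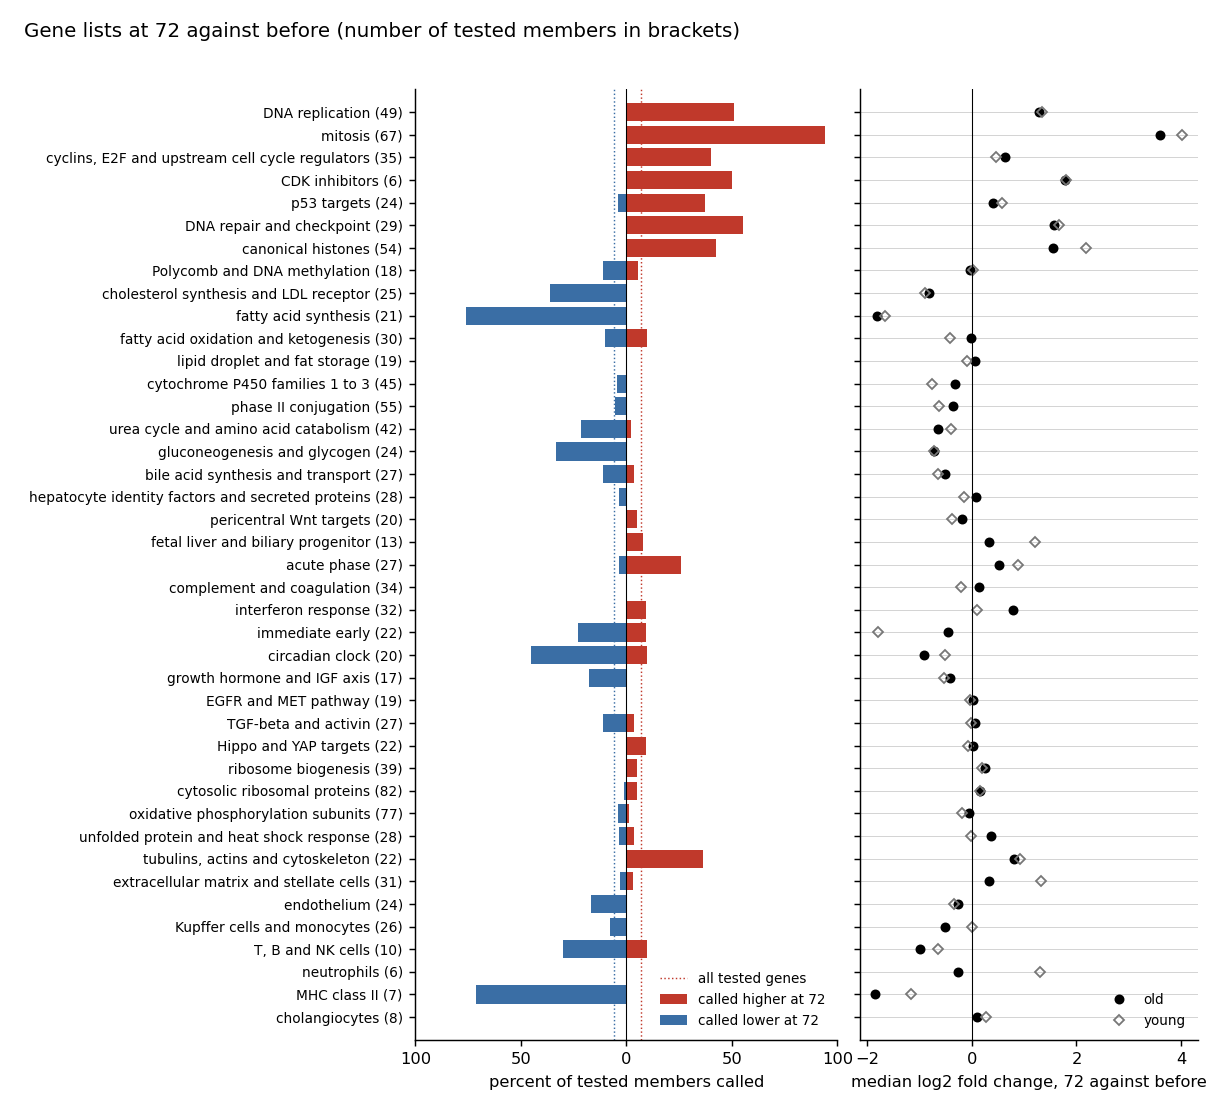
For 41 gene lists with at least 5 tested members, bars on the left give the percent of members called higher (red) or lower (blue) at 72 in old liver, with dotted lines at the share of all tested genes (6.71% and 5.92%). Points on the right give the median log2 fold change of the list at 72 against before in old (black) and young liver (open diamonds). Mitosis has the highest share called higher and fatty acid synthesis the highest share called lower.

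Fatty acid synthesis fell more completely than any other metabolic list: 16 of 21 tested members were lower and 0 higher, with a median log2 fold change of -1.81. The summed level of its genes was 52200, 35500 and 49300 CPM before and 4380, 4370 and 6120 CPM at 72. Fasn, the synthase that builds palmitate (GRCm38 chr11:120805958-120825166), read 5610, 4092 and 5446 CPM before and 353, 701 and 1396 CPM at 72 (-2.63 ± 0.33, adjusted p 3.05e-05). Acaca, which makes the malonyl-CoA that Fasn uses, read 232, 198 and 243 CPM and then 59.9, 97.1 and 111 CPM (-1.33 ± 0.16, adjusted p 2.27e-05). Replicate 3 at 72 was the highest of its group in both genes and remained below each library before. Elovl6, an elongase, fell by 2.63 (log2 units, SE 0.37, adjusted p 9.21e-05) and Acss2, which makes acetyl-CoA from acetate, by 2.79 (SE 0.40, adjusted p 9.21e-05). Leaving out any 1 library gave 15 or 16 members lower.

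Cholesterol genes fell in part, with 9 of 25 lower and 0 higher (median -0.82). Insig1, which holds SREBP in the endoplasmic reticulum and is itself an SREBP target, read 775, 876 and 1131 CPM before and 100, 407 and 347 CPM at 72 (-1.70 ± 0.39, adjusted p 0.00526). Sc5d, a late enzyme of the pathway, read 1802, 1514 and 1987 CPM and then 443, 932 and 733 CPM (-1.33 ± 0.29, adjusted p 0.00276). Tm7sf2, a sterol reductase, fell by 1.33 (SE 0.26, adjusted p 0.00116) and Acat2, which condenses acetyl-CoA, by 1.08 (SE 0.24, adjusted p 0.00384). Replicate 1 at 72 was the lowest library in all 4 genes. Without it the list held 5 lower and 1 higher member and a median of -0.33, and without replicate 2 or 3 before it held 6 and 5 lower.

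Genes of gluconeogenesis, fructose use and glycogen fell in 8 of 24 tested members, with 0 higher (median -0.71). G6pc, which releases free glucose, read 1818, 913 and 1544 CPM before and 289, 200 and 123 CPM at 72 (-2.81 ± 0.52, adjusted p 0.000784). Khk, which phosphorylates fructose, read 304, 318 and 362 CPM and then 125, 112 and 126 CPM (-1.44 ± 0.21, adjusted p 0.000104). The groups lay apart in both genes. The count was 5 without replicate 3 at 72 or without any 1 of the libraries before.

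Of urea cycle and amino acid catabolism genes, 9 of 42 were lower and 1 higher (median -0.64). Tat, which starts tyrosine breakdown, read 1768, 2010 and 3341 CPM before and 820, 582 and 1109 CPM at 72 (-1.50 ± 0.38, adjusted p 0.00929). Hgd, a later enzyme of the same route, fell by 1.14 (SE 0.24, adjusted p 0.00224), Prodh, which oxidises proline, by 1.34 (SE 0.30, adjusted p 0.00408) and Haao, of tryptophan breakdown, by 1.02 (SE 0.23, adjusted p 0.00485). Tat was not called without replicate 2 at 72 (adjusted p 0.058) or replicate 3 before (0.0925). Without replicate 3 before 3 members were lower, without replicate 1 at 72 4 were lower and 1 higher, and without replicate 3 at 72 or replicate 2 before 5 were lower.

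Fatty acid oxidation and ketogenesis showed no common direction, with 3 of 30 members higher and 3 lower (median -0.02). Acaa1b, a peroxisomal thiolase with a close paralog, read 736, 726 and 1238 CPM before and 380, 232 and 226 CPM at 72 (-1.69 ± 0.40, adjusted p 0.00562, and 0.055 without replicate 3 before). Acot1, a thioesterase, changed by 1.70 ± 0.54 (adjusted p 0.0359) and was not called without replicate 1 or 2 at 72 or any 1 before (0.0507 to 0.144). Fgf21, the fasting hormone, read 2.11, 2.46 and 1.6 CPM before and 72.7, 0.936 and 0.957 CPM at 72, so that a single library carried its log2 change of 3.58 ± 1.05 (adjusted p 0.0245). Without that library, replicate 1, the change was -1.08 (adjusted p 0.548), and without any 1 of the libraries before the adjusted p was 0.0552 to 0.102. The list had no call without replicate 3 before, 2 lower without replicate 1 or 2 before, 3 lower without replicate 1 at 72, 2 higher and 1 lower without replicate 2 at 72, and 3 higher and 1 lower without replicate 3 at 72. Among 19 genes of lipid droplets and fat storage 0 were called by edgeR and by DESeq2, with 1 at an unadjusted p under 0.05 and a median of 0.06, and the droplet coat gene Plin2 read 262, 308 and 253 CPM and then 336, 187 and 252 CPM.

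Few enzymes of foreign compound metabolism were called, where 6.71% of all tested genes were higher and 5.92% lower. Of 45 tested cytochrome P450 genes of families 1 to 3, 2 were lower and 0 higher (median -0.32). These were Cyp2d22 (287, 200 and 257 CPM before, 138, 147 and 172 CPM at 72; -0.70 ± 0.15, adjusted p 0.00322) and Cyp2j9 (-1.88 ± 0.48, adjusted p 0.010, and 0.0879 without replicate 3 before). Without replicate 3 before 1 of the 45 was lower, and without replicate 3 at 72 4 were, as in the libraries without Y-linked transcripts. Of 55 phase II conjugation genes, 3 were lower and 0 higher (median -0.37). Ugt1a5, a glucuronosyltransferase that shares exons with its neighbours, read 231, 457 and 596 CPM and then 54.4, 67.4 and 78.3 CPM (-2.68 ± 0.47, adjusted p 0.000529). Inmt, a methyltransferase, changed by -2.83 ± 0.83 (adjusted p 0.0248) and Ugt2a3 by -1.02 ± 0.33 (adjusted p 0.0426). Inmt was not called without any 1 of the libraries at 72 or replicate 3 before (adjusted p 0.052 to 0.116), nor Ugt2a3 without any 1 library other than replicate 2 at 72 (0.0599 to 0.153). Phase II held 1 lower gene without replicate 1 or 3 at 72 or replicate 3 before, and 9 lower and 1 higher in the libraries without Y-linked transcripts. The summed P450 level was 10700, 12800 and 14900 CPM before and 8800, 9460 and 9150 CPM at 72. For phase II it was 8380, 8590 and 10100 CPM and then 5800, 6540 and 6840 CPM. Values at 72 lay wholly below those before in 6 P450 and 11 phase II genes (15.8% of all tested genes). They lay wholly above in 1 and 2 (15.4%).

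Bile acid genes held 3 lower and 1 higher of 27 tested (median -0.51), where 12.6% of all tested genes were called. Cyp27a1, which starts the acidic route of bile acid synthesis, read 440, 393 and 483 CPM before and 115, 198 and 251 CPM at 72 (-1.22 ± 0.34, adjusted p 0.019). Abcc4, an exporter of the basolateral membrane, changed by -1.71 ± 0.44 (adjusted p 0.0106), Slc27a5, which conjugates bile acids, by -0.93 ± 0.29 (adjusted p 0.0358) and Slc51b, a subunit of the basolateral transporter, by 2.56 ± 0.85 (adjusted p 0.0451). Slc51b read 0.47, 0.894 and 1.37 CPM and then 1.85, 0.702 and 13.8 CPM, and without its highest library, replicate 3 at 72, the change was 0.49 (adjusted p 0.801). Each of these 4 calls was lost without replicate 3 before (adjusted p 0.082 to 0.134), when 0 genes of the list were called. Without another library it held 1 to 5 calls, the fewest without replicate 3 at 72 or replicate 2 before. Cyp27a1 was also lost without replicate 1 at 72 (0.1), Abcc4 without replicate 3 at 72 or replicate 2 before (0.0793 and 0.0653), and Slc27a5 and Slc51b without any 1 of several libraries (0.0531 to 0.801). Cyp7a1, the rate-limiting enzyme of bile acid synthesis, read 348, 1185 and 756 CPM before and 124, 540 and 331 CPM at 72 with overlapping groups (-1.2 ± 0.93, adjusted p 0.43).

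Hepatocyte identity factors and secreted proteins held 0 higher and 1 lower of 28 tested, a share below that of all genes, with a median of 0.08. Alb read 10940, 8144 and 8593 CPM before and 7449, 9267 and 7827 CPM at 72 (-0.17 ± 0.23, adjusted p 0.665). Hnf4a, the nuclear receptor that maintains the hepatocyte program, read 1210, 1291 and 1295 CPM and then 1384, 1595 and 1481 CPM (0.23 ± 0.13, adjusted p 0.26). Its groups did not overlap, yet the difference did not pass the test. Apoa2, a high-density lipoprotein component, was the 1 call (-0.68 ± 0.22, adjusted p 0.0377), lost without any 1 library other than replicate 1 at 72 (0.0677 to 0.178), and without replicate 1 before 2 genes were higher and 0 lower. Of 20 pericentral Wnt targets 1 was higher, Slc1a4, a neutral amino acid transporter (1.89 ± 0.58, adjusted p 0.0303), lost without replicate 2 or 3 of either group (0.0664 to 0.145), and Glul, the glutamine synthetase of the cells around the central vein, read 977, 1203 and 967 CPM and then 1263, 734 and 501 CPM (adjusted p 0.628). Of 13 tested fetal and progenitor genes 1 was higher, the imprinted gene Peg3 (1.68 ± 0.57, adjusted p 0.0484, and 0.0845 to 0.201 without any 1 library other than replicate 3 at 72), and Afp, the fetal albumin, read 10.8, 15 and 18.5 CPM and then 17, 25 and 13.8 CPM (adjusted p 0.684).

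Acute phase genes, which hepatocytes raise in response to interleukin-6, were higher in 7 and lower in 1 of 27 tested members (median 0.52). Lcn2, an iron-siderophore binding protein (GRCm38 chr2:32384637-32387739), read 35.7, 16.8 and 5.48 CPM before and 230, 275 and 258 CPM at 72 (3.72 ± 0.75, adjusted p 0.00156). Serpina3n, a protease inhibitor, read 654, 282 and 331 CPM and then 1492, 1915 and 1374 CPM (1.92 ± 0.45, adjusted p 0.00537). Lbp, which binds lipopolysaccharide, rose by 1.28 ± 0.34 (adjusted p 0.0144, and 0.0625 without replicate 1 before). Hamp2, a hepcidin with a close paralog, fell from 1.17, 76.4 and 96.7 CPM to 0.41, 2.11 and 0.383 CPM (-5.94 ± 1.39, adjusted p 0.00571). The library with Y-linked transcripts was already low before in Hamp2, and the groups overlapped there. Of the list, 3 genes were higher and 1 lower without replicate 2 or without replicate 3 before, 4 and 1 without replicate 2 at 72, and 5 and 1 without replicate 1 or 3 at 72. Of 34 complement and coagulation genes 0 were called by edgeR and 2 by DESeq2, with 3 at an unadjusted p under 0.05 (median 0.14). Without replicate 1 before 2 were higher, and C3, the central complement protein, read 5860, 7799 and 6720 CPM and then 9674, 12560 and 10000 CPM (0.66 ± 0.24, adjusted p 0.0712).

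The interferon response list, with 3 of 32 members higher and 0 lower, depended on 1 library. Its summed level was 2740, 2230 and 1670 CPM before and 1680, 1830 and 5370 CPM at 72, so that replicate 3 at 72 stood above all the others. Mx2, which RefSeq lists as a transcribed pseudogene, read 10.1, 8.27 and 7.76 CPM and then 9.03, 14.5 and 71.2 CPM (1.86 ± 0.56, adjusted p 0.0289), and Usp18, which removes ISG15, read 11.5, 9.38 and 5.93 CPM and then 7.80, 12.4 and 41.9 CPM (1.22 ± 0.40, adjusted p 0.0442). Stat2, the signal transducer, read 109, 120 and 85.3 CPM and then 147, 181 and 206 CPM without overlap (0.77 ± 0.21, adjusted p 0.0187). Without replicate 3 at 72 the median of the list went from 0.78 to -0.45, and adjusted p was 0.672 for Mx2, 0.818 for Usp18 and 0.0986 for Stat2. Without replicate 3 before 0 members were called and without replicate 2 before 1, and Mx2 and Usp18 were not called in either case (0.0944 to 0.190), nor Stat2 without replicate 3 (0.109).

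Genes of MHC class II antigen presentation fell, with 5 of 7 tested members lower and 0 higher (median -1.84). H2-Aa, a chain of the I-A molecule (GRCm38 chr17:34282744-34287823), read 41.1, 71.0 and 43.4 CPM before and 10.5, 7.25 and 7.85 CPM at 72 (-2.60 ± 0.43, adjusted p 0.000358). Cd74, the invariant chain, read 91.1, 102 and 57.5 CPM and then 21.8, 20.6 and 19.5 CPM (-2.02 ± 0.43, adjusted p 0.00243). H2-Ab1 fell by 2.10 (log2 units, SE 0.35, adjusted p 0.000358) and H2-Eb1 by 1.84 (SE 0.36, adjusted p 0.00132). The fifth call, Ciita, the transactivator of these genes, read 8.45, 12.3 and 8.90 CPM and then 3.69, 5.38 and 1.91 CPM (-1.44 ± 0.42, adjusted p 0.0216). Each of the 5 genes had separate groups, and leaving out any 1 library gave 4 or 5 calls. In bulk tissue, fewer cells of a type and less RNA per cell cannot be told apart.

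Markers of other cells were read beside these genes, and their part in the class II values was not tested. Of 26 Kupffer cell and monocyte genes 2 were lower and 0 higher (median -0.51), near the share of all tested genes. Mrc1, a mannose receptor of Kupffer and endothelial cells, read 83.8, 127 and 103 CPM before and 59.3, 49.6 and 44.0 CPM at 72 (-1.03 ± 0.22, adjusted p 0.00242). Lyz2, the lysozyme of myeloid cells, read 120, 102 and 114 CPM and then 33.2, 28.6 and 61.3 CPM (-1.45 ± 0.37, adjusted p 0.0105), with adjusted p 0.0512 without replicate 1 and 0.0627 without replicate 2 at 72, which left 1 call. The summed level of the list was 1400, 1770 and 1270 CPM before and 1390, 853 and 1310 CPM at 72, so that the groups overlapped. Its defining Kupffer marker Clec4f read 234, 244 and 163 CPM and then 258, 152 and 182 CPM and was not called (adjusted p 0.89), nor were Vsig4 (0.253) and Timd4 (0.979).

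Lymphocyte genes were near the detection limit, and 10 of 26 listed passed the filter, with 3 lower and 1 higher. Ms4a1 (CD20) read 3.52, 5.58 and 2.74 CPM before and 1.23, 0.234 and 0.574 CPM at 72 (-2.47 ± 0.70, adjusted p 0.0201), Cd79b, also of B cells, changed by -1.92 ± 0.54 (adjusted p 0.0191) and Ptprc, the pan-leukocyte CD45, by -0.90 ± 0.30 (adjusted p 0.0484). Prf1, the perforin of killer cells, read 0.47, 0.67 and 0.684 CPM and then 9.24, 1.17 and 1.91 CPM (2.71 ± 0.79, adjusted p 0.0246), and without its highest library, replicate 1 at 72, the change was 1.33 (adjusted p 0.32). The T cell marker Cd3e read at most 1.12 CPM. No gene of the list was called without replicate 2 before. Ms4a1, Cd79b and Ptprc were not called without replicate 2 or 3 at 72 either (adjusted p 0.0531 to 0.193), Ptprc was not called without any 1 library before (0.0929 to 0.120) and Prf1 likewise (0.0618 to 0.0832), and the list held 1 higher and 0 lower without replicate 2 or 3 at 72, 0 and 2 without replicate 1 or 3 before and 0 and 3 without replicate 1 at 72. Of 6 tested neutrophil genes 0 were called by edgeR and by DESeq2, with 1 at an unadjusted p under 0.05, and S100a9 read 6.11, 2.90 and 0.456 CPM and then 5.34, 2.81 and 2.11 CPM.

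Endothelial genes held 4 lower and 0 higher of 24 tested (median -0.27). Oit3, of sinusoidal endothelium, read 37.8, 36.6 and 45.4 CPM before and 19.7, 24.8 and 16.5 CPM at 72 (-0.98 ± 0.20, adjusted p 0.00199). Eng, a co-receptor for BMP9 (-0.44 ± 0.13, adjusted p 0.0249), Fcgr2b (-0.66 ± 0.21, adjusted p 0.0383) and Kdr, the main VEGF receptor (-0.75 ± 0.25, adjusted p 0.0444), were also called. Those 3 were not called without replicate 1 or 3 at 72 or replicate 2 or 3 before (adjusted p 0.0542 to 0.364), nor Kdr without replicate 2 at 72 (0.120). The list held 1 lower gene without replicate 1 or 3 at 72 or replicate 2 or 3 before. The defining markers Pecam1, Stab2 and Clec4g were not called (adjusted p 0.453, 0.237 and 0.635). The summed level of the list was 917, 1140 and 1250 CPM before and 886, 912 and 759 CPM at 72.

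Extracellular matrix and stellate cell genes held 1 higher and 1 lower of 31 tested in old liver (median 0.33). Col4a1, of basement membrane collagen, read 38.5, 32.8 and 26.7 CPM before and 65.5, 79.6 and 100 CPM at 72 (1.32 ± 0.34, adjusted p 0.0107), and Lrat, which stores vitamin A in stellate cells, read 100, 184 and 187 CPM and then 91.9, 86.1 and 61.1 CPM (-0.98 ± 0.30, adjusted p 0.0287). The other defining stellate markers were not called. Reln changed by -0.21 (adjusted p 0.664). Col1a1 read 7.28, 9.38 and 5.02 CPM and then 12.1, 22.0 and 16.8 CPM (1.22, adjusted p 0.249). Col4a1 was not called without replicate 3 of either group (0.0595 and 0.0677) and Lrat not without replicate 2 or 3 of either group (0.0592 to 0.144), which left 0 calls without replicate 3 of either group and 1 without replicate 2. In young liver 19 of the 31 were called higher at 72 and 0 lower (9.26% and 8.23% of all tested genes), with a median of 1.33. The test of the difference between the ages called 0 of the 31 genes, so the ages were not shown to differ in any of them. Of 8 cholangiocyte genes 0 were called by edgeR and 1 by DESeq2, and of 4 erythroid genes 0 by both, with 1 in each list at an unadjusted p under 0.05. The bile duct water channel gene Aqp1 read 155, 242 and 236 CPM and then 224, 186 and 184 CPM. Cfd, an adipocyte protease, read 28.6 CPM in replicate 1 before and at most 0.447 CPM in the other 5, and was not called (adjusted p 0.0736).

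Clock genes changed widely: 9 of 20 were lower and 2 higher (median -0.92). Bhlhe40, a repressor that responds to light and feeding (GRCm38 chr6:108660629-108666925), read 593, 678 and 536 CPM before and 140, 128 and 172 CPM at 72 (-2.04 ± 0.30, adjusted p 0.000103). Arntl (BMAL1), the activator of the core loop, read 0.939, 1.56 and 1.82 CPM and then 9.65, 21.3 and 4.21 CPM (2.98 ± 0.58, adjusted p 0.00126). Its partner Clock read 107, 89.1 and 84.4 CPM and then 121, 222 and 133 CPM (0.76 ± 0.21, adjusted p 0.0168). Hlf, an output factor of the loop, fell by 1.00 (log2 units, SE 0.23, adjusted p 0.00537). Clock was not called without replicate 2 at 72 or replicate 2 or 3 before (adjusted p 0.068 to 0.180). The list then held 2 lower and 1 higher in each case, and 3 lower and 2 higher without replicate 1 at 72. The labels give no hour of tissue collection, and a difference in that hour and a difference between the time points cannot be told apart.

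Immediate early genes, which respond within minutes to handling and to growth signals, held 5 lower and 2 higher of 22 tested (median -0.46). Their summed level was 1480, 1640 and 3230 CPM before and 997, 1230 and 1240 CPM at 72, and the median was -0.09 with 3 lower and 2 higher without replicate 3 before, and -0.84 with 6 lower and 1 higher without replicate 1 before. Zfp36, which degrades cytokine messages, read 193, 218 and 390 CPM before and 41.7, 56.2 and 79.5 CPM at 72 (-2.17 ± 0.28, adjusted p 3.51e-05). Dusp1, a MAP kinase phosphatase, read 157, 172 and 236 CPM and then 20.3, 27.1 and 25.9 CPM (-2.94 ± 0.51, adjusted p 0.000479). Nr4a1, an orphan nuclear receptor, read 9.63, 14.7 and 64.6 CPM and then 4.31, 1.87 and 2.49 CPM (-3.34 ± 0.61, adjusted p 0.00068). Ier5 went the other way, from 18.1, 19.7 and 17.8 CPM to 39.2, 68.6 and 51.3 CPM (1.51 ± 0.30, adjusted p 0.00128).

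In the growth hormone and IGF axis, 3 of 17 were lower and 0 higher (median -0.42). Ghr, the growth hormone receptor, read 878, 755 and 990 CPM before and 337, 380 and 244 CPM at 72 (-1.45 ± 0.25, adjusted p 0.000437). Igfbp3, which carries IGF1 in blood, read 54.5, 71.3 and 46.8 CPM and then 14.2, 8.89 and 9.76 CPM (-2.39 ± 0.41, adjusted p 0.000436). Jak2, the kinase on the receptor, changed by -0.53 ± 0.16 (adjusted p 0.0294), a call lost without replicate 2 or 3 of either group (0.0664 to 0.180). The list held 2 lower genes in those 4 cases and 5 without replicate 1 at 72, and its median was 0.02 in the libraries without Y-linked transcripts.

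In the EGFR and MET pathway 0 of 19 genes were called by edgeR and 2 by DESeq2, with 4 at an unadjusted p under 0.05 (median 0.02). Egfr, the receptor for EGF and TGF-alpha (GRCm38 chr11:16752203-16913907), read 1724, 160 and 160 CPM before and 816, 1016 and 996 CPM at 72, so that the library with Y-linked transcripts lay high before and the other libraries low. Over all libraries its log2 change was 0.47 ± 0.59 (adjusted p 0.652). Without replicate 1 before it was 2.59 (adjusted p 0.00143), and in the libraries without Y-linked transcripts 2.53 (adjusted p 0.00158). Errfi1, a feedback inhibitor of EGFR, read 2624, 2295 and 3658 CPM and then 2071, 2230 and 1775 CPM (adjusted p 0.227).

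TGF-beta and activin genes held 3 lower and 1 higher of 27 tested (median 0.07), where 12.6% of all tested genes were called. Smad2, the signal transducer, read 59.6, 73.5 and 59.8 CPM before and 45.1, 43.1 and 41.9 CPM at 72 (-0.57 ± 0.13, adjusted p 0.00468). The inhibitory Smad7 (-0.76 ± 0.23, adjusted p 0.0319), the activin receptor Acvr2a (-0.53 ± 0.16, adjusted p 0.0334) and the BMP target Id1 (0.91 ± 0.29, adjusted p 0.0415) were also called. Smad7 was not called without any 1 library other than replicate 1 before (0.0502 to 0.157), Acvr2a not without replicate 1 or 3 at 72 or 2 or 3 before (0.0593 to 0.174) and Id1 not without any 1 library other than replicate 1 at 72 (0.0572 to 0.187), which left 1 to 2 calls, except without replicate 1 before, when 5 were lower and 1 higher. Of Hippo and YAP targets 2 of 22 were higher: Birc5 (survivin), which also acts at the centromere in mitosis, read 3.05, 2.23 and 2.97 CPM and then 42.1, 55.9 and 61.1 CPM (4.26 ± 0.74, adjusted p 0.000479), and Ajuba, a LIM protein that inhibits LATS, rose by 1.33 ± 0.25 (adjusted p 0.000903).

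Few genes of the protein synthesis machinery were called, where 6.71% of all tested genes were higher and 5.92% lower. In 14 of 39 ribosome biogenesis genes the values at 72 lay wholly above those before, and in 2 wholly below. For 82 cytosolic ribosomal protein genes these counts were 19 and 5, beside 15.4% and 15.8% of all tested genes. Of 39 ribosome biogenesis genes 2 were higher, Ppan (0.78 ± 0.24, adjusted p 0.0323) and Rrp12 (1.15 ± 0.37, adjusted p 0.0417), and neither was called without replicate 3 at 72, replicate 1 before or replicate 3 before (adjusted p 0.0531 to 0.198), nor Rrp12 without replicate 1 at 72 or 2 before (0.0685 and 0.0884). Without replicate 2 at 72 4 were higher, without replicate 1 or 2 before 1, and without replicate 3 of either group 0. Of 82 cytosolic ribosomal protein genes 4 were higher and 1 lower. Rpl22 fell from 84.3, 90.0 and 104 CPM to 59.7, 41.4 and 36.6 CPM (-1.01 ± 0.18, adjusted p 0.000529). Rps10 (1.99 ± 0.43, adjusted p 0.0027), Rpl41 (0.74 ± 0.21, adjusted p 0.0194) and Rps15a (0.95 ± 0.28, adjusted p 0.0258) rose, in a family whose many pseudogenes make counts uncertain. Rpl41 was not called without replicate 3 of either group (0.0569 and 0.120) and Rps15a not without any 1 library (0.0503 to 0.0967), and the list held 1 higher and 1 lower member without replicate 3 of either group and 2 and 1 without replicate 2 at 72.

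Of 77 genes on the list of oxidative phosphorylation subunits 3 were lower and 1 higher, where 12.6% of all tested genes were called. Ndufb8 of complex I (-0.40 ± 0.13, adjusted p 0.0431), Uqcrfs1 of complex III (-0.49 ± 0.15, adjusted p 0.0338) and Atp5sl (-0.85 ± 0.28, adjusted p 0.0433) fell by small amounts. Atp5sl is on the list but is not itself a subunit. Cox6b2, a subunit best known from testis, held 2 counts before and 35 at 72, a ratio of 16.0 (95% counting interval 4.10 to 137). These calls were not firm: Ndufb8 was lost without any 1 library other than replicate 3 at 72 (adjusted p 0.0687 to 0.215), Atp5sl and Uqcrfs1 without most libraries (0.0551 to 0.259) and Cox6b2 without replicate 3 at 72 or replicate 2 before (0.0506 and 0.0676). Without any 1 library 0 to 3 were called, with 0 without replicate 2 before and 1 without replicate 1 or 3 at 72 or replicate 3 before. Of 28 genes of the unfolded protein and heat shock response 1 was higher and 1 lower. Herpud1, of endoplasmic reticulum degradation, read 358, 352 and 551 CPM and then 183, 109 and 226 CPM (-1.28 ± 0.24, adjusted p 0.00094), and the chaperone Hyou1 rose by 0.98 ± 0.31 (adjusted p 0.0349, and 0.061 to 0.168 without replicate 2 or 3 of either group). Without replicate 1 before 6 genes of that list were higher and 1 lower, and without replicate 2 or 3 of either group 0 and 1.

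The same comparison in young liver called 2350 genes (17.5%), 1244 higher and 1106 lower. Of the old calls, 1112 were called in young liver in the same direction, which was 65.6% of the old and 47.3% of the young calls, and 0 were called in opposite directions. The question of whether the change at 72 differs with age was tested directly. Of 13436 genes, 0 were called by edgeR's test of the difference between the old and the young change, where 626 had an unadjusted p under 0.05, and DESeq2 called 0. Old and young liver at 72 compared with each other gave 0 calls by edgeR, and 16 by DESeq2; 668 genes had an unadjusted p under 0.05. The lists stood side by side: mitosis had 63 genes higher in old and 64 in young with medians of 3.60 and 4.02, DNA replication 25 and 31 with 1.28 and 1.34, and fatty acid synthesis 16 and 17 lower with -1.81 and -1.66. Esm1 had a log2 change of -3.73 in old and 0.05 in young liver (adjusted p 1.00 for the difference), and canonical histones held 23 calls in old and 41 in young.

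**Figure D4:**
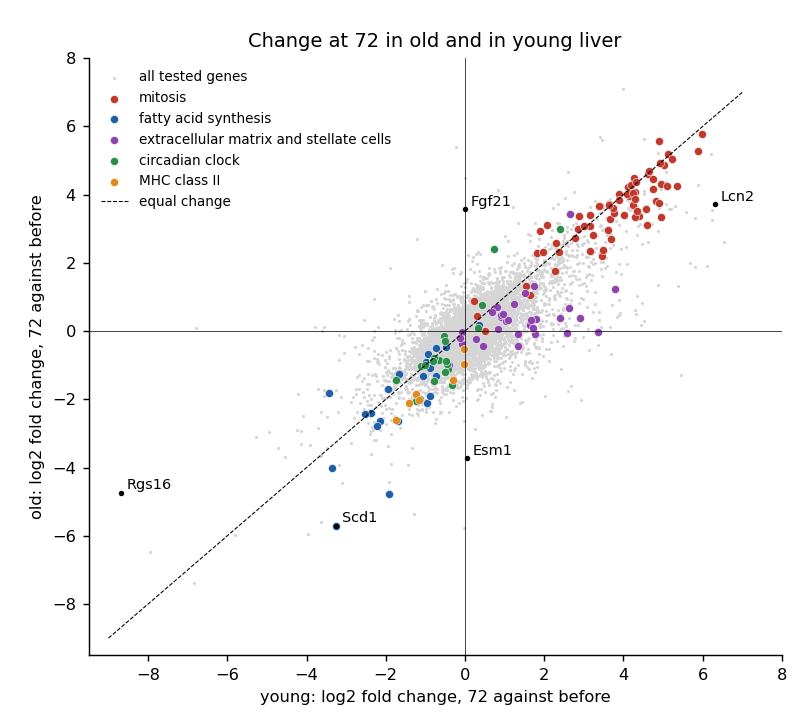
Each point is 1 tested gene, with its log2 fold change at 72 against before in young liver on the x axis and in old liver on the y axis, and the dashed line marks equal change. Mitosis genes lie at the upper right and fatty acid synthesis genes at the lower left, and extracellular matrix and stellate cell genes (purple) have a median of 1.33 in young and 0.33 in old liver.

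The step from 48 to 72 in old liver was then tested directly. At 72, 393 genes were called against old liver at 48 (2.92%), 212 higher (1.58%) and 181 lower (1.35%). Of the mitosis list 26 of 67 were higher at 72 than at 48 and 0 lower, while 0 of 49 DNA replication genes were called in either direction. Knstrn rose by 3.10 from 48 to 72 (adjusted p 0.0202), Ccnb1 by 3.08 (adjusted p 0.0277) and Cdc20 by 3.10 (adjusted p 0.0359). Of the interferon list 8 genes were higher than at 48, and replicate 3 at 72 stood apart in this list too, with a sum of 5370 CPM beside 1680 and 1830 CPM. Among the calls of that step with the smallest p were Atrn, an attractin (-1.21, adjusted p 0.00102), Abca2, a lipid transporter (1.39, adjusted p 0.00204), and 9130401M01Rik (-1.15, adjusted p 0.00204), and none of these 3 was called at 72 against before (adjusted p 0.19 to 0.823). The libraries at 48 were more variable than the others, with a biological coefficient of variation of 40.63% against 24.93% at 72 and 25.13% before, and a fit of the old 48 and old 72 libraries alone called 0 genes. The count of 393 was 11 without replicate 2 at 72, 28 without replicate 3 at 72, 12 without replicate 2 at 48 and 234 without replicate 1 at 48, and it was 642 without replicate 1 at 72 and 1569 without replicate 3 at 48.

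From 72 to 96, 0 genes were called by edgeR and by DESeq2, with 420 at an unadjusted p under 0.05 by edgeR. Mki67 averaged 56.9 ± 26.5 CPM before, 243 ± 284 at 48, 1014 ± 401 at 72, 800.4 ± 467 at 96, 499.8 ± 106 at 120 and 115 ± 63.6 CPM at 240 in old liver (SD, n = 3). In young liver it averaged 2288 ± 778 CPM at 48 and 1095 ± 637 CPM at 72. Fasn averaged 5049 ± 833 CPM before, 493 ± 157 at 48, 816 ± 531 at 72, 836 ± 139 at 120 and 3018 ± 689 CPM at 240 in old liver. H2-Aa averaged 51.8 ± 16.7 CPM before, 10.7 ± 6.55 at 48, 8.52 ± 1.71 at 72 and 28.7 ± 7.37 CPM at 240. In old liver the mean at 72 differed by less than the larger SD from the mean of Mki67 at 96, from the means of Fasn at 48 and at 120 and from the mean of H2-Aa at 48.

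**Figure D5:**
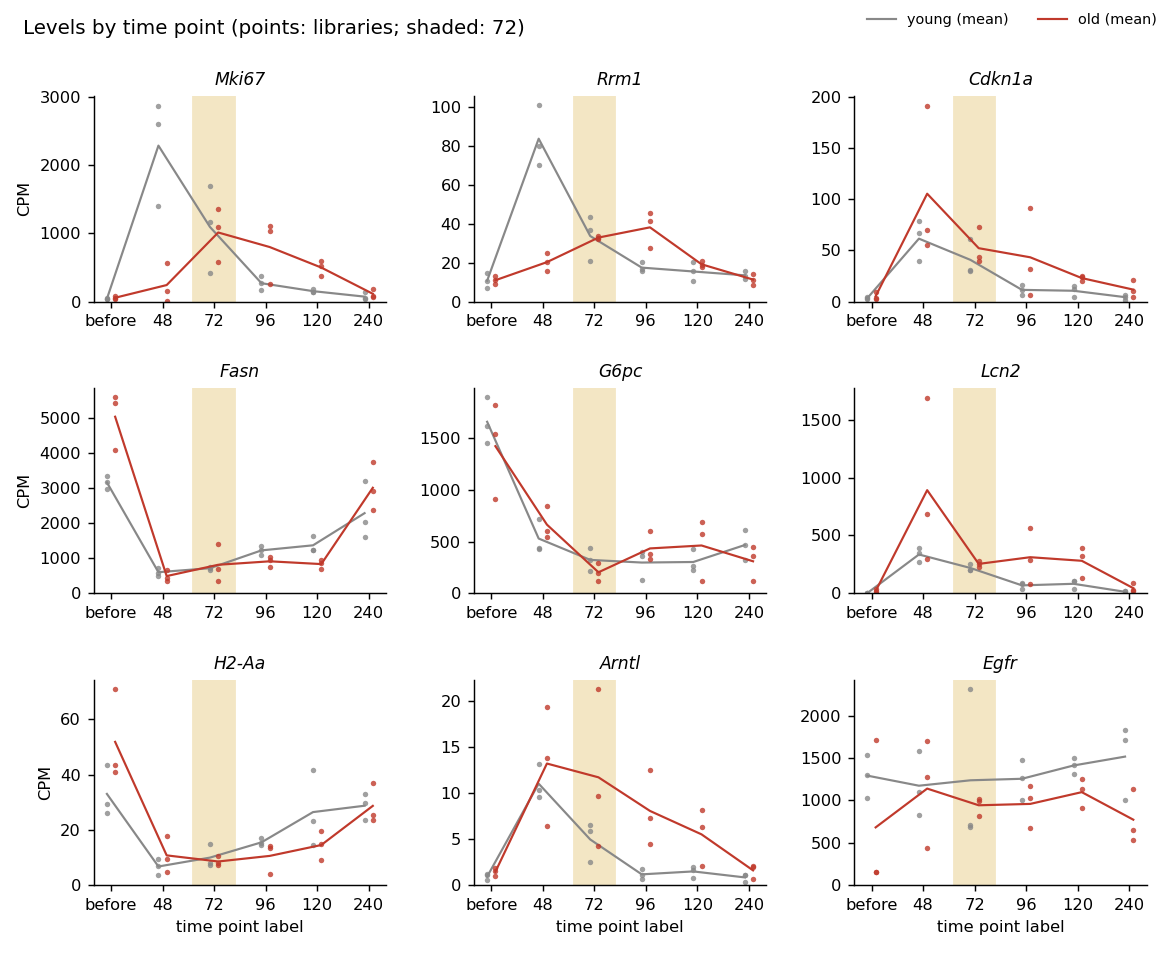
CPM of 9 genes at the 6 time point labels, which are spaced evenly on the x axis and not to scale, with 1 point per library and lines through the means of 3 libraries (red: old, grey: young; shading marks 72). In old liver Mki67 has its highest mean at 72 and Fasn its lowest at 48, and Egfr shows 1 high and 2 low libraries before.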

How the data were processed

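Liver RNA was sequenced as ribosome-depleted total RNA in 36 libraries, 3 for each of 12 groups. The deposited values are counts of reads per gene symbol, and the authors' steps included Trimmomatic 0.39, STAR 2.7.5b and featureCounts on GRCm38/mm10, per the submitters' processing notes. The annotation and the strand setting are not given in the sources used here, so reads of overlapping genes cannot be told apart. Of 21955 rows, 27 have symbols that were turned into dates (0.17% of counts). They stayed in the library sizes and the fit but name no gene here. The filter on low counts of edgeR left 13436 rows.

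All 36 libraries entered 1 fit with edgeR 4.0.16 (R 4.3.3), TMM scaling and the quasi-likelihood F test, and p-values were adjusted over all 13436 genes by Benjamini and Hochberg. A call is an adjusted p under 0.05, SE is the log2 fold change divided by the root of F, and the common biological coefficient of variation was 24.7%. DESeq2 1.42.0 was an alternative, beside other scalings and filters, thinning to 2328233 counts, left-out libraries, a covariate for Y-linked transcripts and a replicate block. Genes with 3 or fewer counts in a group are given as a ratio of counts with an exact 95% interval, which covers counting error only. Data were simulated for old liver at 72 against before, with 200 of 13256 genes changed. There 84% of 4-fold and 47% of 2-fold changes were called, and 5.07% of 138 calls were false. The changed genes had a mean above 1 CPM, and every other gene had the same mean and spread in all groups. No simulated library stood apart or differed by Y-linked transcripts, so these rates need not hold for the real calls.

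The named genes are the 12 largest rises and falls among calls with groups that do not overlap and a mean of at least 1 CPM, without symbols of the kinds given to predicted genes or pseudogenes. To these were added the 4 called members of each list with the smallest p, up to 2 members with the highest level of a list with no call, the 4 calls with the smallest p of each other contrast, and 14 genes whatever their result, such as Mki67, Alb and Myc. The members and lists were chosen with earlier results of these data known. Gene positions and promoter sequences come from RefSeq, both on GRCm38. Replicate numbers were not used to pair the libraries in the main fit. Deviations of same-numbered libraries from their group means correlated at -0.278, 0.148 and -0.268. The highest correlation, 0.406, was between replicate 1 before and replicate 3 at 72, both with Y-linked transcripts. The labels do not say whether libraries before and at 72 share animals. Neither this nor whether equal numbers mark a shared batch was tested. Some genes that this rule names are not reported here.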

Additional observations from a re-analysis of the deposited data

How the results depend on the processing

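The count of 1696 calls at 72 against before was 1031 with counts thinned to the smallest total, 989 in a fit of the 2 groups alone and 873 where a 2-fold difference was also required, and leaving out 1 library gave 692 to 1746. It was 1870 by DESeq2, 1946 with Y-linked transcripts as a covariate and 2157 without the old 48 group. In the libraries without Y-linked transcripts it was 1227, of which 945 were among the 1696. The difference between the old and the young change, with 0 calls, had 1 with Y-linked transcripts as a covariate, 10 in the libraries without them and 0 with any 1 library left out. Old against young at 72, with 0 calls, had 16 by DESeq2, 17 with the covariate, 19 in the libraries without Y-linked transcripts and 0 to 20 with 1 library left out. The 393 calls of 72 against 48 became 704 by DESeq2, 609 with the covariate, 211 after thinning, 255 without a filter, 2 in the libraries without Y-linked transcripts, 0 in the fit of those groups alone and 11 to 1569 with 1 library left out. The step from 72 to 96 had 0 calls under each alternative run. With a replicate block the counts were 1853 at 72 against before, 0 for the difference between ages, 0 for old against young at 72, 398 against 48 and 0 against 96. Among genes that the naming rule chose and that are given with a fold change, 3 turned in direction. Fgf21 ranged from -1.08 (without replicate 1 at 72) to 4.15 with 1 library left out. Alb was at 0.014 in the libraries without Y-linked transcripts and ranged from -0.27 to 0.0019 with 1 library left out, the highest without replicate 1 before. Myc was at 0.049 with total-count scaling and ranged from -0.47 to 0.22 with 1 library left out, and was above 0 without replicate 2 at 72 (0.19) or replicate 3 before (0.22). The cause of these shifts was not tested. Depth limits genes with few counts, and the 4242166 to 4863794 counts per library set that limit.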

Other observations

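In all, 13 genes known to differ between the sexes in mouse liver were looked at after their values were seen, because 1 library of each group carried Y-linked transcripts. Hsd3b5, a steroid dehydrogenase, read 71.8 CPM in that library before and 0.574 CPM at 72, and Cyp4a12a, a fatty acid hydroxylase, read 92.3 and 9.76 CPM. Elovl3, an elongase, read 120 CPM in that library before and 18.8 CPM at 72. In the other libraries Sult2a1, a sulfotransferase, read 92.5 and 79.6 CPM before and 33.0 and 36.5 CPM at 72. In the main edgeR fit none of these 4 genes was called (adjusted p 0.115 for Hsd3b5, 0.445 for Cyp4a12a, 0.331 for Elovl3 and 0.595 for Sult2a1). With Y-linked transcripts as a covariate the adjusted p was 0.00159 for Hsd3b5, 0.00243 for Cyp4a12a, 0.118 for Elovl3 and 0.0015 for Sult2a1. Of the 13 genes 8 were not called with the covariate: Elovl3, Mup20 (0.578), Slco1a1 (0.0803), Cyp2d9 (0.629), Cyp2b9 (0.468), Cyp2b13 (0.226), A1bg (0.229) and Egfr (0.234). Directions differed: Cyp2d9 had a log2 change of 0.60 with the covariate, from 495, 2.68 and 15.7 CPM before to 363, 10.5 and 44.0 CPM at 72 with the library carrying Y-linked transcripts given at the start of each. In the libraries without Y-linked transcripts Cyp2d9 was at 1.56, Mup20 at 0.79 and Hsd3b5 at 3.11, the last from at most 0.234 CPM. Hsd3b5 and Mup20 were not called there (adjusted p 0.389 and 0.739), nor Cyp2d9 (0.364). In the main fit the log2 change was -0.29 for Cyp2d9, -1.29 for Mup20 and -5.99 for Hsd3b5, so each turned in direction.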
